A study of Drosophila melanogaster with 2 samples.

Results

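The 8 Hox genes of Drosophila melanogaster are labial (lab), proboscipedia (pb), Deformed (Dfd), Sex combs reduced (Scr), Antennapedia (Antp), Ultrabithorax (Ubx), abdominal-A (abd-A) and Abdominal-B (Abd-B). All 8 symbols were found among 13945 protein-coding genes of the annotation. Sites of Dachshund tagged with enhanced green fluorescent protein (GFP) had been mapped by chromatin immunoprecipitation and sequencing (ChIP-seq) with an anti-GFP antibody on sonicated chromatin. A peak was counted for a Hox gene when its summit, the base of highest signal, had a transcription start site of that gene as the nearest protein-coding start site or lay inside the gene's body. By that rule 7 of 4137 peaks of the authors' irreproducible discovery rate (IDR) list belonged to Hox genes, and 90 of 30000 peaks of their pooled relaxed list. The authors label the pooled relaxed list as peaks and background, and 18 of the 90 reached a q of 0.05 or less.

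The series holds 1 group, dac-eGFP prepupae. The animals came from a transgenic line in which GFP is fused to the C-terminus of Dachshund, males and females were mixed, and the labels give an age of 48 days that disagrees with the stage. The group has 2 biological replicates, numbered 1 and 3. The sources used here give neither the number of animals per replicate nor the promoter that drives the tagged gene. There was no other genotype, stage or treatment, so no contrast between conditions could be tested, and all comparisons are descriptions of Hox genes beside all genes or all peaks. No mock sample was analysed here, so non-specific recovery and tagged Dachshund cannot be told apart. Whole animals were used, so a site occupied in few cells and a site weakly occupied in many cannot be told apart, and peak lists give no expression with which to check the labelled stage.

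Hox genes encode homeodomain transcription factors that give the segments of the animal their identity from head to tail. In Drosophila they lie in the Antennapedia complex, whose genes pattern the head and thorax, and the bithorax complex, whose genes pattern the posterior thorax and abdomen. Their long introns and intergenic stretches hold many enhancers and elements bound by Polycomb and Trithorax group proteins. Dachshund is a nuclear protein of the Ski and Sno family that is needed for the eye, the legs and the mushroom bodies of the brain.

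In the IDR list, which the authors derived from both replicates, Antp had 5 peaks, and lab and Abd-B had 1 each. The other 5 Hox genes, pb, Dfd, Scr, Ubx and abd-A, had none. Thus 3 of 8 Hox genes had an IDR peak, against 18.9% of all protein-coding genes. Longer genes held peaks more often, and that share over all genes was 11.7% for bodies under 5 kb, 34.4% for 5 to under 20 kb, 54.4% for 20 to under 50 kb and 59.9% for 50 kb and over. Beside genes of their own length, 1 of 2 Hox genes of 5 to under 20 kb had an IDR peak (lab, not Dfd), 1 of 4 of 20 to under 50 kb (Abd-B, not pb, Scr or abd-A) and 1 of 2 of 50 kb and over (Antp, not Ubx). With 8 genes these shares are too coarse to be set apart from the shares over all genes.

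The sequences around the summits of the 7 IDR peaks of Hox genes are shown because they are the Hox sites with the highest pooled signal, and each overlaps a peak in both replicates. Each runs from 100 bases before to 100 bases after the summit on the plus strand of chromosome arm 3R (dm6, Release 6 assembly, from RefSeq), with coordinates counted from 1. Capitals mark matches on either strand to 5 short motifs, which may overlap each other. The motifs were GAGAG, the core bound by GAGA factor, GCCAT, the core bound by Pleiohomeotic, TAATTA, a common homeodomain core, TGATNNAT, a composite of Extradenticle and Hox proteins, and TTTATG, a core preferred by Abd-B.
lab, chr3R:6664737-6664937: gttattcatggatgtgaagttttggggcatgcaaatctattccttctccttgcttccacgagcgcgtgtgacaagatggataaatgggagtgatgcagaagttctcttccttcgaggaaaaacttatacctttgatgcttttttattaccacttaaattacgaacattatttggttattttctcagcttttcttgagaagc
Antp, chr3R:6912402-6912602: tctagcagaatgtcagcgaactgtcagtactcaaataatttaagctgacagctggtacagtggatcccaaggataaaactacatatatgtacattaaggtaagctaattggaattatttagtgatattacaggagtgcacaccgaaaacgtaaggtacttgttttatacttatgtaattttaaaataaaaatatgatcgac
Antp, chr3R:6920089-6920289: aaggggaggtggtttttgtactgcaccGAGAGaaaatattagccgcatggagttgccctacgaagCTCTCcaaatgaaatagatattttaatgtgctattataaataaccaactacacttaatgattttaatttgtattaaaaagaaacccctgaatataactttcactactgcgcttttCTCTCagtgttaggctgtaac
Antp, chr3R:6950204-6950404: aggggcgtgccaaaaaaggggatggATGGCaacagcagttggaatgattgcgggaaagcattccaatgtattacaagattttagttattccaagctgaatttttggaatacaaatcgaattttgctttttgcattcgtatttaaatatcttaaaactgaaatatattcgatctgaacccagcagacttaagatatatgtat
Antp, chr3R:6951250-6951450: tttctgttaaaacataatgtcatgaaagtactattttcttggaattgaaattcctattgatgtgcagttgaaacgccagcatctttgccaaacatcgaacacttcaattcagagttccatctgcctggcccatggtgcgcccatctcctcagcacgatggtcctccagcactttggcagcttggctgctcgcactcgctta
Antp, chr3R:7024661-7024861: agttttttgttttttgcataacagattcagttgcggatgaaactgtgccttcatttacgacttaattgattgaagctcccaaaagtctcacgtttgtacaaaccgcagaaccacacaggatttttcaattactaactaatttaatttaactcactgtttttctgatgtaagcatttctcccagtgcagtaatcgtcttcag
Abd-B, chr3R:16948788-16948988: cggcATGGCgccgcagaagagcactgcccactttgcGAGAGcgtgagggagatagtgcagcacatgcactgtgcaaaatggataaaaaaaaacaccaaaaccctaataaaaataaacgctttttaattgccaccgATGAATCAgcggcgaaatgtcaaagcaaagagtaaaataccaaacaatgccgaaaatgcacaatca
Of these 7 windows, 2 held GAGAG, 2 held GCCAT, 1 held TGATNNAT and none held TAATTA or TTTATG. Over all 4137 IDR peaks, 25.5% of windows of that length held GAGAG, 26.3% GCCAT, 14.0% TGATNNAT, 15.2% TAATTA and 22.7% TTTATG. The intron of Antp whose window starts at 6920089 had 3 GAGAG matches, at 73 and 35 bases before and 80 bases after the summit. The Abd-B window was the only one of the 7 with more than 1 kind of motif, holding GCCAT once, one match to GAGAG and one to TGATNNAT. GC content of the 7 windows ran from 32.8% to 45.8% with a median of 35.8%, and the median over all IDR peaks was also 35.8%.

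A further 3 IDR peaks lay inside the bithorax complex without being counted for a Hox gene, because the nearest protein-coding start site belonged to another gene. Their sequences are shown in the same way, since they lie in the regulatory stretches between Ubx, abd-A and Abd-B and 1 of them had the highest signal of any IDR peak within either complex.
lncRNA:bxd intron, chr3R:16763674-16763874: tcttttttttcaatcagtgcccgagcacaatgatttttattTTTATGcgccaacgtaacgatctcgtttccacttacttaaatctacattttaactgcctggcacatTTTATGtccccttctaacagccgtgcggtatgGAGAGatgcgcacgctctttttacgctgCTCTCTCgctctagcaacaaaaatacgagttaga
intergenic, between Ubx and abd-A, chr3R:16798775-16798975: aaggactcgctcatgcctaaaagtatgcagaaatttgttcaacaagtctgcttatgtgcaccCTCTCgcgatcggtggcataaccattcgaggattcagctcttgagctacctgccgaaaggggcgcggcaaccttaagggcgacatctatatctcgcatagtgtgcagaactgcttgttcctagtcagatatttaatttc
lncRNA:iab8 intron, chr3R:16869325-16869525: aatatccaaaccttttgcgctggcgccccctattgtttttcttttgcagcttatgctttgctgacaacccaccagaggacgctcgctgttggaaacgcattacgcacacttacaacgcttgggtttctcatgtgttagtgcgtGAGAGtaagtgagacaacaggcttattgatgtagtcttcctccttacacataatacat
GAGAG was present in all 3 of these windows, with 3 matches in the window inside lncRNA:bxd, where TTTATG also matched at 2 places. A match describes the letters and is not evidence of a bound factor.

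Antp, which specifies the second thoracic segment and its legs, had the highest number of peaks of the 8 genes in each of the 4 lists. Its 103.0 kb body (FBgn0260642, chr3R:6896253-6999228, minus strand) has 3 start sites, at 6999228, 6958370 and 6932840. A second protein-coding gene, CG46458, spans 6896253 to 6958370 and shares the middle start site, so peaks there cannot be given to one or the other. The pooled list held 45 Antp peaks, replicate 1 held 54 and replicate 3 held 30. Of all protein-coding genes, 54 had more pooled peaks than Antp and 91 had more IDR peaks. Among the 307 genes of 50 kb and over, 254 had fewer pooled peaks than Antp and 3 had the same number, around a median of 23 and quartiles of 8 and 38.

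**Figure D1:**
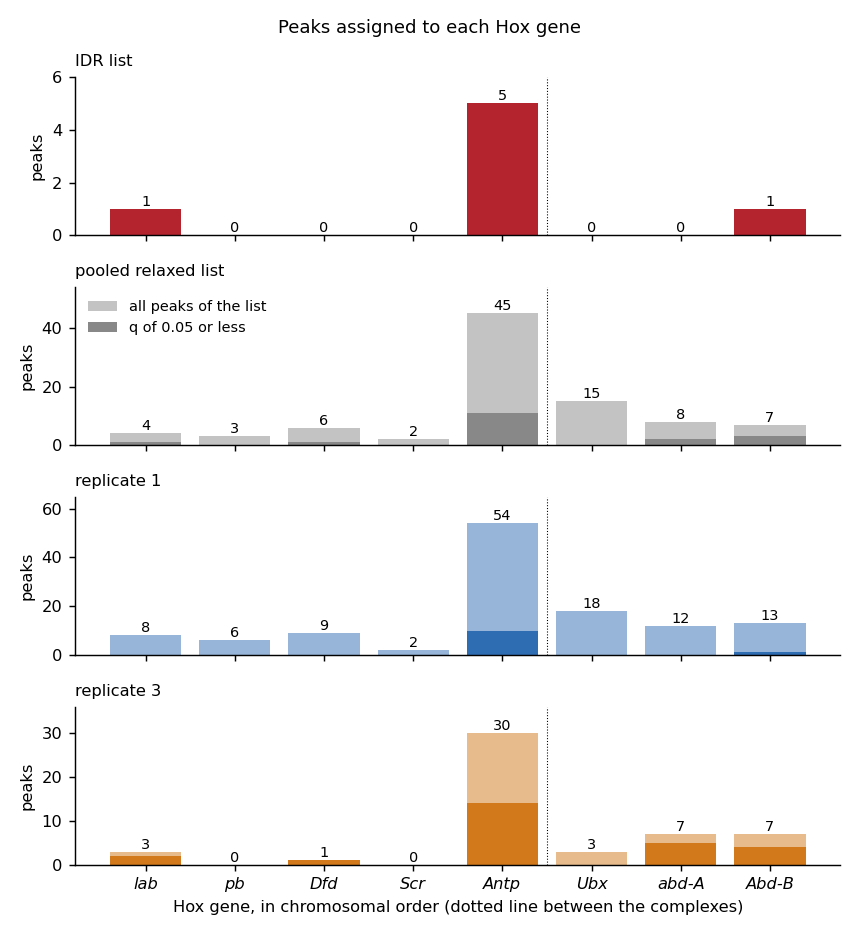
Number of peaks (y axis) counted for each Hox gene (x axis, chromosomal order) in the IDR list, the pooled relaxed list, replicate 1 and replicate 3, with the darker part of each bar for peaks at q of 0.05 or less. Antp has the most peaks in each of the 4 lists, with 5, 45, 54 and 30, and pb and Scr have none in replicate 3.

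The strongest Antp peak, chr3R:6951233-6951381, was 149 bp wide, against 410 bp for the other IDR peaks of Hox genes. It lay in an intron 7020 bp downstream of the middle start site. Its signal in the pooled list was 198.1, which ranked it 1677 of 30000. It ranked 1742 in replicate 1 with a signal of 77.9 and 1826 in replicate 3 with a signal of 119.0, so both replicates placed it alike. Signal is the authors' own value and its scale differs between lists, so lists are compared by rank, where 1 is the highest.

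A neighbouring peak, chr3R:6950099-6950508, lay 8066 bp downstream of the middle start site. It had a pooled signal of 133.0 and ranked 2235 in replicate 1 and 4552 in replicate 3. The other intronic pair lay downstream of the last start site. The peak chr3R:6912297-6912706 was 20338 bp downstream of it, with a pooled signal of 154.1 and ranks of 2334 in replicate 1 and 2481 in replicate 3. The peak chr3R:6919984-6920393 was 12651 bp downstream, with a pooled signal of 142.3 and ranks of 2700 in replicate 1 and 2914 in replicate 3. Of the intronic Antp peaks in the IDR list, the one placed lowest by any replicate was chr3R:6950099-6950508, in replicate 3.

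The fifth Antp peak, chr3R:7024556-7024965, was intergenic and lay 25533 bp upstream of the first start site. Its pooled signal was 123.6. It ranked 2885 in replicate 1 and 6230 in replicate 3, where it was the lowest of the 5. No IDR peak fell within 500 bp of an Antp start site, and 2 of the 45 pooled Antp peaks did. Neither of those passed a q of 0.05 in the pooled list, with pooled ranks of 18898 near the middle start site and 21301 near the last. The one near the last overlapped a peak of replicate 3 at rank 8723, which did pass, and no peak of replicate 1. Replicate 1 also had a peak 468 bp downstream of the first Antp start site at rank 6058, which did not pass and overlapped none of replicate 3.

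Within the Antp body the spread of the peaks differed between the lists. The pooled list held 3.83 peaks per 10 kb in the 36.6 kb downstream of the last start site, 5.09 in the 25.5 kb between the middle and last start sites and 2.69 in the 40.9 kb between the first and middle ones. Those values rest on 14, 13 and 11 peaks and have no intervals. Replicate 3 had the same order, with 3.28, 4.31 and 1.22 peaks per 10 kb. Replicate 1 had 4.37, 4.70 and 4.41 peaks per 10 kb, so there the 3 stretches were nearly equal. The 40.9 kb stretch held no IDR peak. Its highest peak, chr3R:6989445-6989854, had a pooled signal of 92.8 and ranked 5253, and it overlapped peaks ranked 4521 in replicate 1 and 7906 in replicate 3.

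**Figure D2:**
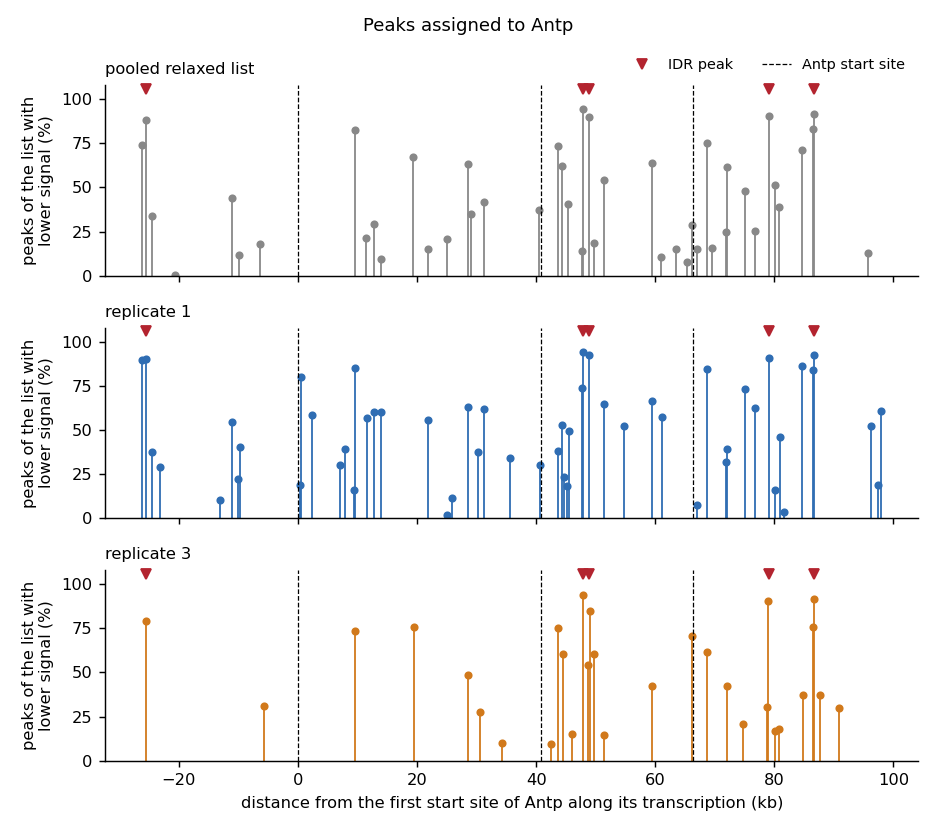
Peaks counted for Antp along the gene (x axis, kb from its first start site in the direction of transcription; y axis, percent of the list's peaks with a lower signal) in the pooled list and both replicates, with start sites dashed and IDR peaks as triangles. The IDR peaks lie at 25533 bp upstream of the first start site and in introns beyond the middle and last ones, and replicate 1 has more low peaks between the first and middle start sites than replicate 3.

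In the Antennapedia complex outside Antp, lab was the 1 other Hox gene with an IDR peak. lab, the most anterior Hox gene, acts in the head and the midgut. Its body (FBgn0002522, chr3R:6661427-6678590, minus strand) is 17.2 kb long. The IDR peak, chr3R:6664632-6665041, lay in an intron 1383 bp upstream of the inner start site. Its pooled signal was 110.7, close to the lowest of the IDR list at 109.8, and its rank was 4086. It ranked 4039 in replicate 3 with a signal of 71.0, and 7320 in replicate 1 with a signal of 34.7, where it did not reach a q of 0.05. Of the 4 pooled lab peaks, 3 lay in a single cluster at that site and overlapped peaks in both replicates.

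pb, which specifies the mouthparts, had 3 pooled peaks, 6 in replicate 1 and 0 in replicate 3. The highest, chr3R:6723837-6724246, had a pooled signal of 53.0 and a rank of 11390. Dfd, which specifies the mandibular and maxillary segments, had 6 pooled peaks, 9 in replicate 1 and 1 in replicate 3. Its gene body held none in any of the 4 lists. The highest Dfd peak, chr3R:6791314-6791723, lay at the promoter, 317 bp upstream of the start site, with a pooled signal of 94.2 and a rank of 5146. It overlapped a peak ranked 7410 in replicate 1 and no peak of replicate 3. The 1 Dfd peak of replicate 3, chr3R:6818590-6818985, lay 26952 bp from the start site, downstream of the gene, at rank 7869.

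Scr, which specifies the labial and first thoracic segments, had 2 pooled peaks, 2 in replicate 1 and 0 in replicate 3. Both pooled peaks were at start sites, with signals of 42.8 and 40.2 that ranked 15628 and 17075, and neither reached a q of 0.05. No pooled peak of pb, Dfd, Scr or Ubx overlapped a peak in both replicates. The counts were 20 of 45 for Antp, 3 of 4 for lab, 5 of 8 for abd-A and 3 of 7 for Abd-B. The same share over all pooled peaks was not computed, so these counts have no background beside them. Neighbouring pooled peaks can overlap the same replicate peak, as at lab, Antp and abd-A, so the counts are of peaks and not of separate sites.

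Ubx, which distinguishes the haltere and hind leg from the wing and midleg, was the longest Hox gene after Antp at 77.8 kb (FBgn0003944, chr3R:16656623-16734426, minus strand). It had no IDR peak. Its 15 pooled peaks ranked at best 12663, none reached a q of 0.05, and replicate 1 had 18 and replicate 3 had 3. Of the 307 genes of 50 kb and over, 123 had no IDR peak, and 122 had fewer pooled peaks than Ubx. The highest Ubx peak, chr3R:16702141-16702550, lay in an intron 32080 bp downstream of the start site with a signal of 49.2. It overlapped a peak ranked 5548 in replicate 1 and none in replicate 3.

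abd-A, which specifies the middle abdominal segments, also had no IDR peak. Its pooled list held 8 peaks, with 12 in replicate 1 and 7 in replicate 3, and replicate 3 carried 5 at q of 0.05 or less where replicate 1 carried 0. The highest, chr3R:16834649-16835058, lay 4805 bp upstream of the first start site in an intron of lncRNA:iab8 and of the protein-coding gene MSAmiP. It had a pooled signal of 90.7. It ranked 3944 in replicate 3 and 28455 in replicate 1, so the replicates placed it far apart. Peaks at the abd-A promoter ranked 9264 in replicate 3 and 7210 in replicate 1.

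Abd-B, which specifies the most posterior abdominal segments, had 1 IDR peak in its 45.0 kb body (FBgn0000015, chr3R:16927212-16972236, minus strand, 6 start sites). The peak, chr3R:16948683-16949092, was intronic and lay 4615 bp upstream of the nearest start site. Its pooled signal of 110.4 ranked 4103, and it ranked 2708 in replicate 1 and 2743 in replicate 3. A second intronic site, chr3R:16957981-16958390, had nearly the same pooled signal, 108.4, and just missed the IDR list at rank 4208. That site ranked 1868 in replicate 3 and 17960 in replicate 1, so it was high in 1 replicate and low in the other.

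**Figure D3:**
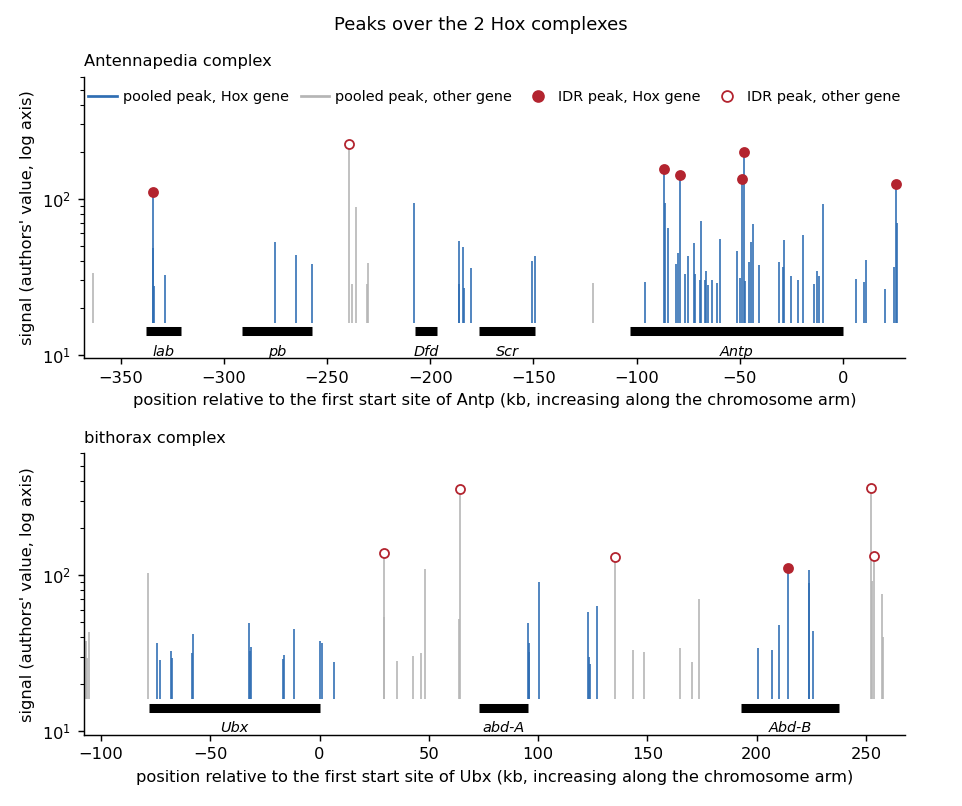
Signal of each peak (y axis, log scale, authors' value) in the pooled list over the Antennapedia and bithorax complexes (x axis, kb from the first start site of Antp or Ubx), in blue where counted for a Hox gene and grey where not, with IDR peaks as circles and Hox gene bodies as bars. The highest IDR peak inside either complex, at 357.3, is an open circle between Ubx and abd-A, and the Ubx body carries no IDR peak. A higher open circle, at 362.0, lies past the Abd-B body and so outside the limits of the complex.

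Over the whole bithorax complex, from Ubx to Abd-B (315.6 kb), 1 of 4 IDR peaks was counted for a Hox gene. The strongest of the 4, chr3R:16798774-16799030, was 257 bp wide and intergenic, 64449 bp upstream of the Ubx start site and 29230 bp from a start site of abd-A. The nearest protein-coding start site, at 10564 bp, belonged to the glucose transporter gene Glut3. Its signal was 357.3, at pooled rank 577, and it ranked 821 in replicate 1 and 488 in replicate 3. Another, chr3R:16763569-16763978, lay in an intron of lncRNA:bxd, the non-coding gene of the bithoraxoid regulatory region upstream of Ubx. It was 29348 bp from the Ubx start site, with a signal of 137.8 and ranks of 4294 in replicate 1 and 3088 in replicate 3. The last, chr3R:16869220-16869629, lay in an intron of lncRNA:iab8 and MSAmiP with a signal of 129.8. It ranked 3554 in replicate 1 and 3559 in replicate 3.

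The non-coding genes lncRNA:iab4, mir-iab-4, mir-iab-8, mir-10 and mir-993 had no IDR or pooled peak inside them. The microRNA genes are only 0.068 to 0.119 kb long, so their lack of a summit says little. Replicate 1 had 3 peaks inside lncRNA:iab4, the best at rank 15098, and replicate 3 had 0. In the Antennapedia complex 5 of 6 IDR peaks within the body limits were counted for a Hox gene. The sixth, chr3R:6759640-6759790, lay 237 bp from the start site of bicoid (bcd), the gene of the maternal anterior determinant, with a signal of 224.4 and ranks of 1765 in replicate 1 and 1197 in replicate 3.

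Peak density sets the numbers against length. The Antp body held 36.9 pooled peaks per 100 kb (95% Poisson interval 26.1 to 50.7), against 21.1 over arm 3R (20.6 to 21.6). Replicate 1 gave 44.7 (32.7 to 59.6) and 21.4. Replicate 3 gave 27.2 (18.1 to 39.3) and 21.2, so the interval of replicate 3 covered the value of the arm. In the IDR list the Antp body held 3.88 (1.06 to 9.95), from 4 peaks, an interval that covers the arm's 2.96. The lab body held 5.83 in that list (0.148 to 32.5), from 1 peak. For peaks passing the q threshold, Antp and the arm had 8.74 and 6.51 in the pooled list. The values were 7.77 and 3.82 in replicate 1, and 12.6 and 9.79 in replicate 3, all without intervals. The stretch of the Antennapedia complex from lab up to the Antp body held 8.94 pooled peaks per 100 kb (5.54 to 13.7). There replicate 1 gave 17.9 (12.9 to 24.2), an interval that covers the arm's 21.4, and replicate 3 gave 2.98 (1.2 to 6.14), so the value depends on the replicate. The short lab body had 23.3 in the pooled list (6.35 to 59.7), 46.6 in replicate 1 (20.1 to 91.8) and 17.5 in replicate 3 (3.60 to 51.1), from 4, 8 and 3 peaks. The bithorax complex held 13.9 (10.1 to 18.7) in the pooled list, with 21.2 in replicate 1, close to the arm, and 7.29 in replicate 3. Both replicate lists have 30000 peaks, and over arm 3R they differed by less than 1 peak per 100 kb.

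**Figure D4:**
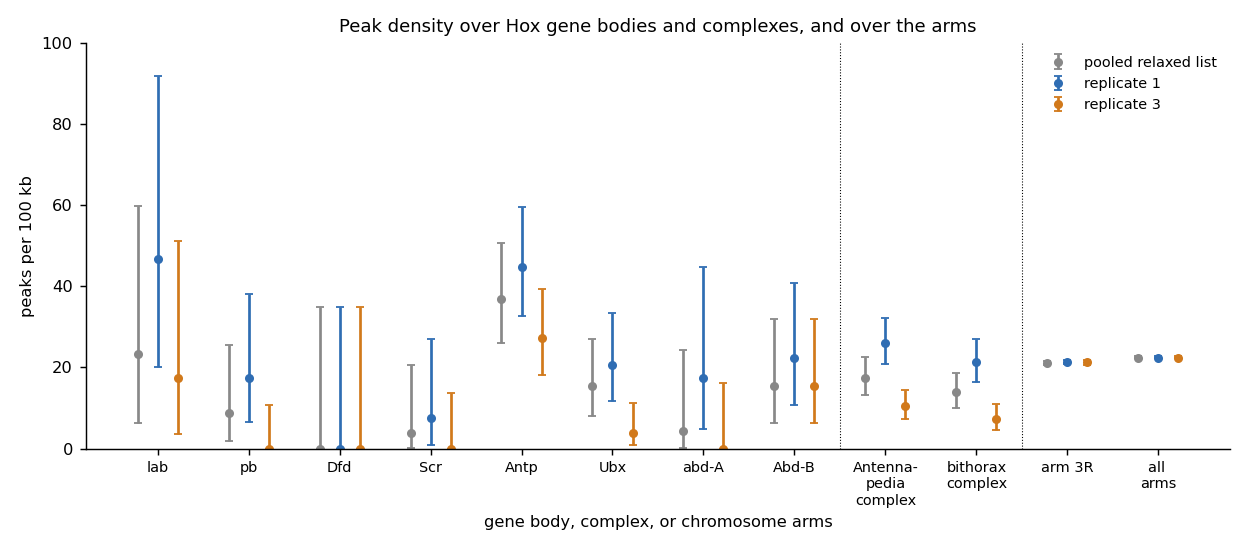
Peaks per 100 kb (y axis) over each Hox gene body, both complexes, arm 3R and all arms (x axis) in the pooled list, replicate 1 and replicate 3, with points for the count and bars for 95% Poisson intervals. Antp lies at 36.9 in the pooled list, against 21.1 on arm 3R, and in the bithorax complex replicate 1 lies at 21.2 and replicate 3 at 7.29.

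The relaxed lists showed how far the Hox counts depend on the replicate. They hold background too, so a peak in them is not by itself a Dachshund site. Of the 30000 peaks in each, 9178 reached a q of 0.05 in the pooled list, 5282 in replicate 1 and 13828 in replicate 3. All 8 Hox genes had a pooled peak, against 48.8% of all genes, and all 8 had a peak in replicate 1, against 53.4%. In replicate 3, 6 of 8 had one, against 51.6%. Hox bodies run from 10.6 to 103.0 kb, while 10461 of the 13945 genes are under 5 kb, with a median of 0 pooled peaks. Beside genes of their own length, lab (4) and Dfd (6) had more pooled peaks than the median of 2, pb (3), Scr (2), abd-A (8) and Abd-B (7) had fewer than the median of 9, and Antp (45) had more and Ubx (15) fewer than the median of 23. All 6 Dfd peaks lay outside its body. Merging overlapping peaks left lab with 2, though the medians are of unmerged peaks. At q of 0.05 or less 5 of 8 had a pooled peak, against 29.8%. By the same threshold 2 of 8 had a peak in replicate 1, against 20.9%, and 5 of 8 in replicate 3, against 38.5%. The 4137 highest peaks of the pooled list were the same 4137 intervals, with the same signal, as the IDR list, so 3 of 8 against 18.9% is 1 result and not 2. Among the highest 4137 peaks of replicate 1 it was 2 of 8, Antp and Abd-B, against 18.1%. In the highest 4137 of replicate 3 it was 4 of 8, lab, Antp, abd-A and Abd-B, against 19.6%.

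Hox genes took 122 of 30000 peaks in replicate 1 and 51 of 30000 in replicate 3. Of the 122, 32 overlapped a peak of replicate 3 by at least 1 bp, a share of 26.2% (95% Wilson interval 19.2% to 34.7%), against 54.7% of all peaks of replicate 1. Of the 51, 31 overlapped a peak of replicate 1, a share of 60.8% (47.1% to 73.0%), against 56.7% of all peaks of replicate 3. The low share in replicate 1 lay mostly outside Antp, where 9 of 68 peaks were shared, against 23 of 54 at Antp. At q of 0.05 or less 10 of 11 Hox peaks of replicate 1 overlapped a peak of replicate 3, a share of 90.9% (62.3% to 98.4%), against 95.1% of all such peaks. In the other direction 18 of 26 Hox peaks of replicate 3 at that threshold overlapped a peak of replicate 1, a share of 69.2% (50% to 83.5%), against 73.6% of all such peaks, with 11 of 14 at Antp and 7 of 12 outside it. Neighbouring peaks of 1 Hox gene share chromatin, so these intervals cover only the number of peaks counted.

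**Figure D5:**
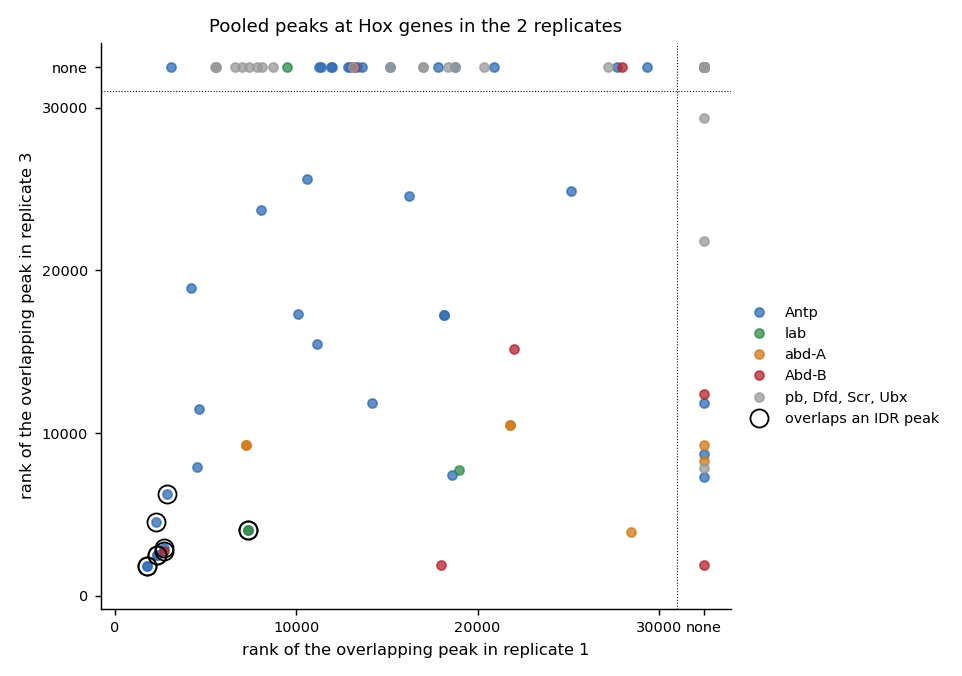
Rank of the overlapping peak in replicate 1 (x axis) and in replicate 3 (y axis) for each of the 90 pooled peaks at Hox genes, with none where a replicate has no overlapping peak, coloured by gene, and circled where it overlaps an IDR peak. The circled peaks rank at 7320 or better in replicate 1 and 6230 or better in replicate 3. Of the 90, 31 have an overlapping peak in both, and that share over all pooled peaks was not computed.

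Hox peaks were placed mainly in introns. Of the 7 IDR peaks, 6 were intronic, 1 was intergenic and 0 lay within 500 bp of a start site, against 44.7%, 15.0% and 37.9% of all IDR peaks. The 103.0 kb body of Antp alone held 4 of the intronic ones. The rule counts any summit inside a body, and shares over all peaks were not matched for gene length. Whether length accounts for the difference was not tested. Of the 90 pooled peaks, 72.2% were intronic and 13.3% at start sites, against 49.6% and 23.4% of all pooled peaks. The median signal of the 7 IDR peaks was 133.0, against 172.4 over the list, and 1 of 7 lay above that median. In windows of 100 bases on each side of the summit, 40.0% of pooled Hox peaks held GCCAT (30.5% to 50.3%) and 35.6% held GAGAG (26.4% to 45.8%), against 33.3% and 25.4% of all pooled peaks. Merging overlapping peaks left 78 of the 90, so the windows are not independent and these intervals cover only the number counted. Enrichment was not tested. The other motifs were at 26.7% for TTTATG, 15.6% for TAATTA and 12.2% for TGATNNAT, against 22.1%, 12.8% and 12.5%. At start sites of protein-coding genes the shares were 30.8% for GCCAT, 25.0% for GAGAG, 14.4% for TTTATG, 9.39% for TAATTA and 10.1% for TGATNNAT.

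Genes that work with or above the Hox genes were counted by the same rule. Of 4 Hox cofactors, homothorax (hth), which carries Extradenticle into the nucleus, had 4 IDR peaks, the highest with a signal of 213.8 in an intron at chr3R:10517953-10518095. Another cofactor, teashirt (tsh), which acts with Hox proteins in the trunk, had 1 with a signal of 129.6, and exd and tio had none. Of 7 segmentation regulators, hunchback (hb), a repressor of Hox genes in the embryo, had 1 IDR peak at its promoter with a signal of 209.3, and Kr, kni, gt, eve, ftz and opa had none. Of 9 other homeobox genes, invected (inv) had 1 with a signal of 131.5, and of 5 other genes of the Antennapedia complex only bcd had one. The best-ranked peak of hb was at 9530 in replicate 1 and 794 in replicate 3, so the replicates placed that gene far apart. The best ranks in replicates 1 and 3 were 1505 and 1530 for hth, 3495 and 3091 for tsh and 5360 and 2689 for inv. The genes eve, ftz and zen each stand in more than 1 of these lists. Over all protein-coding genes 18.9% had an IDR peak, and the lists were not matched for gene length. Lists this short are too coarse to be set apart from that share.

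hth had 67 pooled peaks, 68 in replicate 1 and 65 in replicate 3, while Antp had 45, 54 and 30. By the numbers of peaks in the 4 lists, the genes most like Antp were Pvf3, sm and CG32264, at distances of 0.44, 0.58 and 0.65 on the log2 scale of number plus 1. Pvf3 had 4 IDR peaks, 45 pooled peaks, 43 in replicate 1 and 33 in replicate 3.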

How the data were processed

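The data are peak lists from anti-GFP ChIP-seq of 2 biological replicates, numbered 1 and 3. The authors deposited a relaxed list of 30000 peaks for each replicate and for both pooled, and an IDR list of 4137 peaks, on dm6 and dm3. The dm6 lists were used. Per the file headers, the relaxed lists derive from the alignments and the IDR list from the relaxed lists. The sources used here name no aligner, caller or IDR threshold. The authors deposited the signal of each peak without a stated scale, and its q-value as −log10 q, capped in each list. Read depth is unknown.

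Members and lists were chosen with earlier results of these data known. Summits were given to protein-coding genes of Ensembl release 115 by the nearest start site or the gene body, with ties kept. Promoters were summits within 500 bp of a start site. Motifs were searched within 100 bp of the summit on both strands. Named were all 8 Hox genes, the members of the lists with an IDR peak, and the 3 genes nearest to Antp by Euclidean distance over the 4 lists. Python 3.11.15, pandas 2.3.3 and scipy 1.17.1 were used, and the assignment, overlap and motif code was tested on simulated data. Alternatives covered assignment rules, thresholds, overlap rules, windows and leaving out each replicate. Intervals (95%, Wilson for shares, exact Poisson for densities) cover counting error only, and no p-value was computed, since 1 group gives no contrast.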

Additional observations from a re-analysis of the deposited data

How the results depend on the processing

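Of 67 values under alternatives, 46 stayed within 1.5 times the count or within the 95% interval. The IDR list and the highest 4137 pooled peaks are the same set and were both scored, so some of these values are counted more than once. The limit is also wide for small counts, since a change from 3 Hox genes to 2 or 4 was within it. The 5 other assignment rules left 3 Hox genes with an IDR peak, 6 to 7 IDR peaks and 66 to 90 pooled peaks. With only peaks above the list's median signal, 1 Hox gene had an IDR peak, 1 IDR peak was left, 34 pooled peaks were left, 1 Hox gene was among the highest 4137, and densities were 7.1 per 100 kb (Antennapedia complex) and 5.39 (bithorax complex). At q of 0.05 or less 18 pooled peaks at 5 Hox genes were left. Leaving out each replicate gave 2 to 4 Hox genes and 7 to 8 peaks among the highest 4137, 51 to 122 relaxed peaks (51 without replicate 1, 122 without replicate 3), and densities of 10.4 to 26.1 (Antennapedia complex) and 7.29 to 21.2 (bithorax complex). The overlap of replicate 1 and replicate 3 Hox peaks became 17.2% and 45.1% when at least 50% of the peak had to overlap, 13.1% and 31.4% with summits within 100 bp, and 81.8% and 38.5% at q of 0.05 or less in both. The ratio of the share of windows at pooled Hox peaks to that at all pooled peaks became 1.61 for GCCAT within 50 bp of the summit, against 1.2 within 100 bp, and 1.85 for TTTATG beside start sites, against 1.21 beside pooled peaks. Fewer peaks or a narrower rule construct the lower counts, and for the other changes the cause was not tested. Merging overlapping peaks, an alternative chosen after seeing the data, left 7 IDR and 78 pooled Hox peaks. The dm3 lists were not run, as no annotation of that build was used. No paired analysis was possible because there is 1 group.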
